A study of Homo sapiens with 4 samples.

Results

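A set of 10 genes that mark epithelial or mesenchymal cells was followed in 4 RNA-seq libraries labelled HepG2, a line from a human liver cancer, after siRNA against the long noncoding RNA SALIS (gene symbol LINC01186) or a control siRNA. The 10 genes are CDH1, TJP1, KRT8, KRT18 and KRT19 on the epithelial side, VIM, CDH2 and FN1 on the mesenchymal side, and the transcription factors SNAI2 and ZEB1. They were chosen by name, with earlier results of these data known. Each of the 10 had its own row among the 44591 genes listed. All 10 passed the filter on low counts that left 23942 genes to test. The control group, siNC, and the knockdown group, siLINC01186 (called siSALIS in the study), held 2 libraries each, numbered replicate 1 and replicate 2. All cells were transfected, kept for 6 h without serum and then grown for 24 h in 10% serum. By the study's description siNC was the same in both replicates while the siSALIS oligo differed, and no label names the oligo used for a library. Their level in the control cells is given first, then the siLINC01186 libraries against siNC, then replicate 2 against replicate 1.

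An epithelial cell is held to its neighbours by E-cadherin (CDH1), a membrane protein tied to actin by catenins, and sealed to them by tight junctions, where ZO-1 (TJP1) is a scaffold. Its inner skeleton is built of keratin pairs, such as keratin 8 and keratin 18 (KRT8, KRT18) in liver and other simple epithelia. In the epithelial-mesenchymal transition (EMT) transcription factors including Slug (SNAI2) and ZEB1 bind the E-cadherin promoter and repress it, while vimentin (VIM), N-cadherin (CDH2) and the matrix protein fibronectin (FN1) increase. Hepatocytes also make and secrete fibronectin, and they carry both E-cadherin and N-cadherin, so FN1 and CDH2 are not markers of mesenchyme alone in this tissue.

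For SALIS itself 15 counts were read in siNC replicate 1, 14 in siNC replicate 2, 12 in siLINC01186 replicate 1 and 14 in siLINC01186 replicate 2. The knockdown was not detectable at this depth (log2 fold change -0.12, SE 0.53, unadjusted p = 0.831, edgeR's quasi-likelihood test), so a library is called siLINC01186 by its label alone. The study reported the knockdown of SALIS in HepG2 by qPCR, a measurement outside these libraries. The libraries held between 14968958 and 17297245 counts. A floor of 3 counts in a library, which covers counting error only, corresponds to between 0.169 and 0.210 CPM, where CPM is counts per 1000000 of the TMM-scaled library size. Libraries of the same group were clearly not the same library read again, since their chi-square per gene was 23.4 in siNC and 27.2 in siLINC01186. Sources used here do not say that they came from separate cultures beyond calling them biological repeats. The p-values therefore measure the spread between these 4 libraries, estimated in large part across genes.

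The cell line label was checked with 10 hepatocyte and HepG2 markers, and most of them had few or no reads. The number at or below 3 counts was 9 and 8 in siNC and siLINC01186 replicate 1, and 3 and 2 in replicate 2. Albumin (ALB) had 0 counts in both replicate 1 libraries and 15 and 14 counts in siNC and siLINC01186 replicate 2. APOA1, the main HDL protein, had 0 counts in both replicate 1 libraries and 21 and 20 counts in replicate 2. Alpha-fetoprotein (AFP), usually abundant in HepG2, had 2 and 4 counts in replicate 1 and 6 and 16 in replicate 2. Without HNF4A, a liver transcription factor with 79 and 83 counts in replicate 1 and 161 and 188 in replicate 2, the other 9 markers together reached 4 and 8 counts in replicate 1 and 115 and 86 counts in replicate 2, and no single value was above 27 counts. FABP1 and transthyretin (TTR) stayed at or below 3 counts in every library. The data thus go against a hepatocyte-like level of these markers in cells labelled HepG2, and the libraries are named by their labels below. Of 4 endothelial and leukocyte markers, PTPRC had at most 2 counts in a library, and the list summed to between 1.79 and 3.22 CPM (30 to 46 counts). Of these 4, 2 were at or below 3 counts in each replicate 1 library and 1 in each replicate 2 library. The 5 fibroblast and stellate cell markers summed to 47.8 and 45.5 CPM in replicate 1 and to 82.4 and 82.3 CPM in replicate 2.

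**Figure D1:**
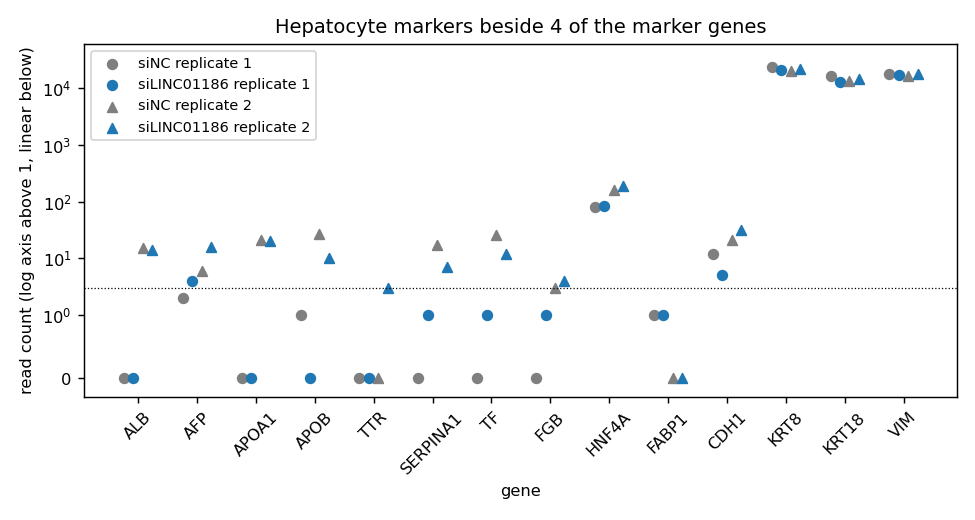
Read counts (vertical axis, logarithmic above 1 and linear below) of 10 hepatocyte and HepG2 markers and of CDH1, KRT8, KRT18 and VIM in each library, with the dotted line at 3 counts. Circles are replicate 1 and triangles replicate 2, grey is siNC and blue siLINC01186. ALB and APOA1 lie at 0 in both replicate 1 libraries, while KRT8, KRT18 and VIM have at least 12963 counts in all 4 libraries.

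The siNC libraries combined very high RNA of keratin 8, keratin 18 and vimentin with almost no E-cadherin RNA. Bulk libraries cannot show whether the same cells held all of these. On the deposited TPM scale, which divides by gene length and so allows genes to be compared, KRT8 stood at 1301.5 ± 105 (SD, n = 2), KRT18 at 1278 ± 153 and VIM at 1067 ± 4.77. Among 19233 protein-coding genes VIM ranked between 106 and 111 in the 4 libraries, and KRT8 between 79 and 94. FN1, TJP1 and ZEB1 followed at 14.5 ± 5.94, 14.1 ± 0.169 and 11.9 ± 0.163 TPM (SD, n = 2 each). SNAI2 at 5.70 ± 2.42, CDH2 at 5.66 ± 0.183 and KRT19 at 2.80 ± 0.353 TPM were lower still, and CDH1 was last at 0.452 ± 0.189 TPM (SD, n = 2 each).

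In that order the step from VIM to FN1 was 73.8-fold, and the step from KRT19 to CDH1 was 6.21-fold. The siNC values of KRT8 and KRT18 overlapped, as did those of FN1 and TJP1 and those of SNAI2 and CDH2, so these neighbours could not be ordered. The order of all 10 genes was that of the siNC means in both replicate 2 libraries and in neither replicate 1 library. FN1 was the sixth gene in siNC replicate 1, behind TJP1 and ZEB1, and SNAI2 lay below CDH2 in both replicate 1 libraries.

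**Figure D2:**
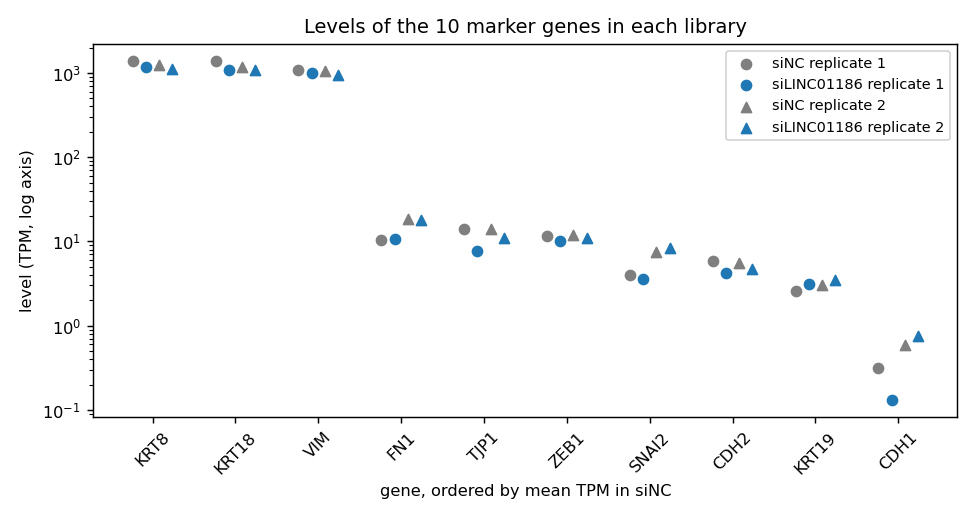
Level in TPM on a logarithmic axis of each of the 10 marker genes in each library, ordered by the mean of the siNC libraries. Circles are replicate 1 and triangles replicate 2, grey is siNC and blue siLINC01186. KRT8, KRT18 and VIM form a group between 948 and 1387 TPM, and CDH1 is below 1 TPM in all 4 libraries.

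For CDH1 the siNC libraries gave 12 counts in replicate 1 and 21 in replicate 2, and the siLINC01186 libraries 5 and 32. All 4 values were above the floor of 3 counts, and the highest was in the replicate 2 library with siLINC01186. The TPM ratio of VIM to CDH1 ran from 1243 in siLINC01186 replicate 2 to 7680 in siLINC01186 replicate 1. N-cadherin exceeded E-cadherin in each library, with a TPM ratio of CDH2 to CDH1 between 6.14 and 32.3.

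The keratins split sharply. KRT8 and KRT18, whose proteins pair in the filament, were at nearly equal TPM, with a ratio between 0.992 and 1.09 over the 4 libraries. KRT19, a keratin of bile duct and progenitor cells, was low, and the TPM ratio of KRT18 to KRT19 was between 310 and 543. KRT7, another duct keratin and no member of the 10, averaged 365 TPM over the 4 libraries.

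Some of these rows can share reads. The libraries were made with a kit that does not mark strand, and VIM-AS1, antisense to VIM and overlapping it by 1727 bases, had between 5340 and 5816 counts, or 0.318 to 0.334 times the count of VIM. Reads of VIM and VIM-AS1 therefore cannot be told apart in that stretch. KRT8 (hg19 chr12:53290971-53343650) and KRT18 (hg19 chr12:53342655-53346685) overlap by 996 bases at their ends. The files also list 43 rows of KRT8 pseudogenes and 62 of KRT18 pseudogenes, and their summed counts were at most 1.27% of KRT8 and 0.830% of KRT18.

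None of the 10 genes was called between siLINC01186 and siNC. With edgeR's quasi-likelihood test and Benjamini-Hochberg adjustment over 23942 genes, 0 genes in all had an adjusted p under 0.05 (0%), while 289 had an unadjusted p under 0.05 (1.21%) and DESeq2's Wald test called 1. At the limits of the study, which take an unadjusted p under 0.05 together with a log2 fold change above 1 in size, 0 of the 10 passed beside 0.756% of all genes. With the replicate number as a block 278 genes were called (1.16%), 83 higher and 195 lower, and again none of the 10. Fits with a block or second term left few residual degrees of freedom. Their p-values, here and below, rest on a spread shared across genes and not on each gene's own. The median log2 fold change of the epithelial genes was -0.02 and that of VIM, CDH2 and FN1 was 0.04, beside a median of 0.00 over all genes tested.

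TJP1 came nearest to a call. It had 56.0 and 54.4 CPM in siNC replicates 1 and 2 and 36.2 and 45.9 CPM in siLINC01186 replicates 1 and 2, so both knockdown values lay below both control values. The log2 fold change was -0.43 (SE 0.20, unadjusted p = 0.0576, adjusted p = 1.000 by edgeR's quasi-likelihood test). With the replicate block it was -0.44 (SE 0.13, adjusted p = 0.0682). The rate in siLINC01186 was 0.646 times that in siNC in replicate 1 (95% exact counting interval 0.579 to 0.720) and 0.843 times in replicate 2 (0.766 to 0.929).

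The other junction gene, CDH1, went opposite ways in the pairs without passing its counting error. Its rate ratio was 0.488 in replicate 1 (95% exact interval 0.135 to 1.49) and 1.38 in replicate 2 (0.774 to 2.53). The log2 fold change over both pairs was 0.13 (SE 0.72) and -0.01 with the block, so no direction can be given. At this depth a change of CDH1 of the size seen within either pair was not detectable.

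None of the keratins was near a call with the siRNA. KRT8 had 1436 and 1266 CPM in siNC replicates 1 and 2 and 1458 and 1205 CPM in siLINC01186, and the groups overlapped (log2 fold change -0.02, SE 0.20). KRT18 had 981 and 818 CPM in siNC and 907 and 799.7 CPM in siLINC01186, which also overlapped (log2 fold change -0.08, SE 0.19). KRT19 was at 1.73 and 2.04 CPM in siNC and at 2.52 and 2.48 CPM in siLINC01186, with both knockdown values above both controls but a log2 fold change of 0.40 with an SE of 0.40.

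On the mesenchymal side, VIM had 1054 and 1035 CPM in siNC replicates 1 and 2 and 1175 and 979 CPM in siLINC01186. The knockdown value was above both controls in replicate 1 and below both in replicate 2 (log2 fold change 0.04, SE 0.19). CDH2 was at 11.9 and 11.2 CPM in siNC and 10.3 and 10.1 CPM in siLINC01186, so the groups did not overlap, but its log2 fold change of -0.18 had an SE of 0.24. FN1 was at 42.5 and 76.4 CPM in siNC and 52.4 and 78.9 CPM in siLINC01186, so the groups overlapped (log2 fold change 0.14, SE 0.30). Its rate ratio was 1.23 in replicate 1 (95% exact interval 1.11 to 1.37) and 1.03 in replicate 2 (0.956 to 1.12).

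The repressors of E-cadherin were not called either. ZEB1 varied little, with 42.7 and 43.1 CPM in siNC and 43.5 and 41.6 CPM in siLINC01186 (log2 fold change -0.01, SE 0.18). SNAI2 was at 3.88 and 7.12 CPM in siNC and 4.20 and 8.50 CPM in siLINC01186 (log2 fold change 0.21, SE 0.43). In all, 3 of the 10 genes had groups that did not overlap (KRT19 above, TJP1 and CDH2 below), beside 26.0% of the genes tested, 13.6% above and 12.4% below.

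**Figure D3:**
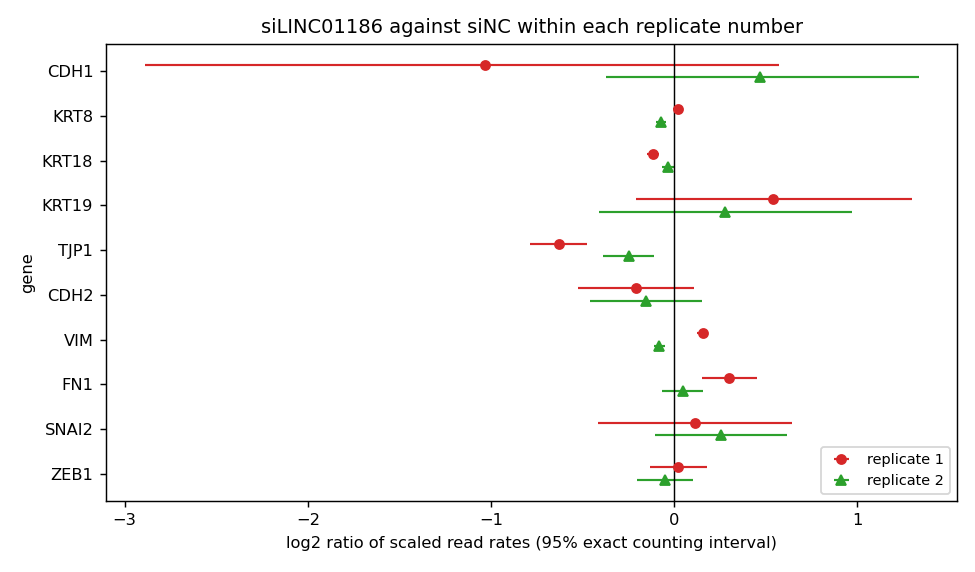
Ratio of siLINC01186 to siNC within replicate 1 (red circles) and replicate 2 (green triangles) for each of the 10 genes, on a log2 axis, with bars for the 95% exact interval that covers counting error only. TJP1 lies below 0 in both pairs with intervals that exclude 0, VIM lies on opposite sides, and the bars of CDH1 are the widest.

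The 2 siSALIS oligos differ in sequence, and sites for their seeds (bases 2 to 8 from the 5′ end) were looked up in the longest 3′UTR that GENCODE 29 annotates for each gene. The oligo siSALIS_02 is shown with both strands because FN1 holds a site for the strand printed by the study and TJP1, the gene nearest to a call with the siRNA, for the complementary strand. Capitals mark the seed in the oligo and the matching bases in the gene.
siSALIS_02 printed strand: cTAAGTGActcactgcatc
siSALIS_02 complementary strand: gATGCAGTgagtcacttag
FN1 site: ttctgcttTCACTTAagtgtctg
TJP1 site: tgctacacACTGCATgtttgtga
The FN1 match begins at base 381 of the 3′UTR (GRCh38 chr2:215361168-215361174, minus strand), and the TJP1 match at base 185 (GRCh38 chr15:29701404-29701410, minus strand). KRT8 also held a match to the complementary strand of siSALIS_02 and 1 to the printed strand of siSALIS_01, and the other 7 genes held none. Among 14806 tested genes with a 3′UTR, 12.1% held the 7 bases matched in FN1 and 13.5% those matched in TJP1. The labels do not tie an oligo to a library, and these matches are a description of the sequences.

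More genes were called between the replicates than between the siRNA groups. By the study's description the siSALIS oligo differed between the replicates. In the siLINC01186 libraries the replicate number therefore cannot be told apart from the oligo. In replicate 2 against replicate 1, with both groups together, FN1 and SNAI2 were higher by edgeR's quasi-likelihood test and none of the 10 was lower, beside 4.44% of all genes called higher and 4.57% called lower (1064 and 1094 genes). With the siRNA as a second term in the fit, 4 of the 10 were called, beside 17.5% of all genes (7.96% higher and 9.55% lower), and CDH1 joined the higher genes and KRT8 the lower ones. At the limits of the study 1 of the 10 passed, CDH1, beside 5.47% of all genes. The CPM values did not overlap between replicates for 6 of the 10 genes, CDH1, FN1 and SNAI2 above and KRT8, KRT18 and VIM below, beside 52.6% of the genes tested, 27.0% above and 25.6% below.

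FN1 was at 42.5 and 52.4 CPM in replicate 1 and 76.4 and 78.9 CPM in replicate 2, each time with siNC first. Its log2 fold change was 0.71 (SE 0.14, adjusted p = 0.00539), with a rate ratio of 1.80 in siNC (95% exact interval 1.64 to 1.97) and 1.50 in siLINC01186 (1.38 to 1.65). SNAI2 was at 3.88 and 4.20 CPM in replicate 1 and 7.12 and 8.50 CPM in replicate 2. Its log2 fold change was 0.95 (SE 0.22, adjusted p = 0.0136). Both genes were higher in replicate 2 in both groups, and both calls were lost when siNC replicate 1 was left out, with an adjusted p of 0.0601 for FN1 and 0.0672 for SNAI2.

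CDH1 also had higher values in replicate 2. It was at 0.716 and 0.350 CPM in replicate 1 and at 1.30 and 1.80 CPM in replicate 2, so the replicates did not overlap. The log2 fold change was 1.50 (SE 0.48, adjusted p = 0.0625 by edgeR's quasi-likelihood test), and with the siRNA term the adjusted p was 0.0193. The log2 fold change was 2.13 without siNC replicate 1 and 1.11 without siLINC01186 replicate 1, and the difference on the log2(TPM + 1) scale, which understates changes of low genes, was 0.45. The rate ratio was 1.82 in siNC (95% exact interval 0.853 to 4.05) and 5.15 in siLINC01186 (1.99 to 16.9), so in the control cells it did not pass the counting error.

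KRT8, KRT18 and VIM had slightly lower values in replicate 2. The log2 fold change of KRT8 was -0.23 (SE 0.10, adjusted p = 0.185 by edgeR's quasi-likelihood test, and 0.0352 with the siRNA term). KRT18 had a log2 fold change of -0.22 (adjusted p = 0.213 by the same edgeR test, and 0.0590 with the siRNA term), and VIM one of -0.15 (adjusted p = 0.454). For TJP1, KRT19, CDH2 and ZEB1 the log2 fold changes lay between -0.06 and 0.12. ZEB1 thus differed from SNAI2 in its own values, and its TPM ratio to SNAI2 went from 2.95 and 2.77 in replicate 1 to 1.62 and 1.31 in replicate 2.

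Some cell type markers moved with the replicate number beside these genes. Of all genes tested 4.44% were called higher in replicate 2, or 7.96% with the siRNA term. Of the 10 hepatocyte markers 8 were tested, and 6 were called higher in replicate 2 (ALB, APOA1, APOB, SERPINA1, TF and HNF4A). Apart from HNF4A, these calls rest on low counts, at most 4 in a replicate 1 library and 27 in any library. Of the 5 fibroblast and stellate cell markers, COL1A1 and PDGFRB were called higher, COL3A1 also with the siRNA term, and of 3 tested endothelial and leukocyte markers none was. Their part in the higher FN1, SNAI2 and CDH1 was not tested. In bulk libraries, more cells of a kind and more RNA per cell cannot be told apart.

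**Figure D4:**
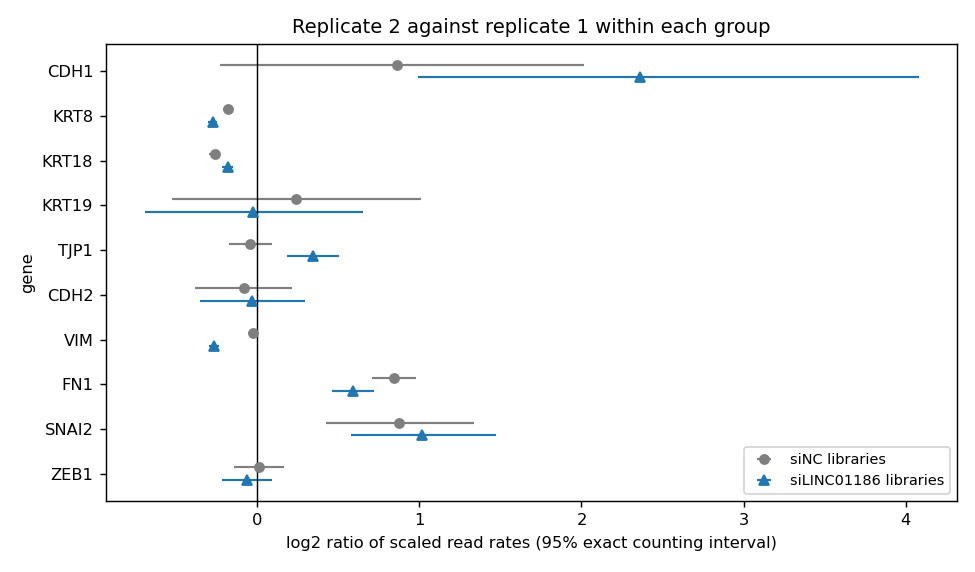
Ratio of replicate 2 to replicate 1 within siNC (grey circles) and siLINC01186 (blue triangles) for each of the 10 genes, on a log2 axis, with bars for the 95% exact interval that covers counting error only. FN1 and SNAI2 lie above 0 in both groups, KRT8 and KRT18 below 0 in both, and CDH1 has the widest bars.

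The wider junction and EMT programme was described with 98 genes in 8 lists, of which 94 were tested. The lists were chosen with earlier results of these data known. Their shares called are therefore a description and not a test of the lists. Against siNC, 0 of the 94 were called in siLINC01186, and 4 were lower and 0 higher with the replicate block (4.26%, beside 1.16% of all genes in that fit). Those 4 were CLDN12, a claudin of the tight junction (log2 fold change -0.62, SE 0.14, adjusted p = 0.00187 with the block), CTNND1, the p120 catenin that steadies cadherins at the membrane (-0.42, SE 0.11, adjusted p = 0.0155), ITGA3, a laminin receptor subunit (-0.49, SE 0.10, adjusted p = 0.000352), and POSTN, a matrix protein (-1.04, SE 0.25, adjusted p = 0.00535). The median log2 fold change of the 94 was -0.09 without the block.

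Between replicates 15 of the 94 were called higher and 5 lower, or 21.3% beside 9.01% of all genes tested. The way the lists were chosen limits this comparison too. With the siRNA as a second term 25 were higher and 11 lower, or 38.3% beside 17.5%, so the genes that this term added to each list are given below. Among 13 tight junction genes 4 were higher and 0 lower, and CLDN12 was lower with the siRNA term (adjusted p = 0.0316 by edgeR). F11R, the junction adhesion molecule A, had 160 and 120 counts in replicate 1 and 525 and 649 counts in replicate 2 (log2 fold change 1.94, SE 0.16, adjusted p = 4.97e-05). TJP3, a relative of TJP1, had 53 and 77 counts in replicate 1 and 286 and 300 counts in replicate 2 (log2 fold change 2.03, SE 0.23, adjusted p = 0.000132). CLDN7 and CGN (cingulin) had log2 fold changes of 1.03 and 1.08, with adjusted p-values of 0.000923 and 0.0124 by edgeR's test.

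Of 5 adherens junction partners, CDH3 (P-cadherin) was called higher at 1.44 (SE 0.35), from 15 counts in each replicate 1 library to 38 and 52 counts in replicate 2. The catenins JUP and CTNNA1 were abundant, at 485 and 149 TPM, and were not called in either fit, whereas CTNND1 was called higher with the siRNA term (0.41, adjusted p = 0.00175 by edgeR). Of 5 desmosome genes DSC2 was higher (1.03, SE 0.28) and PKP3 lower (-0.53, SE 0.12), while DSP and DSG2 were the most abundant at 89.2 and 71.9 TPM. With the siRNA term DSP (0.28, adjusted p = 0.0233), DSG2 (0.33, adjusted p = 0.0149) and PKP2 were also called higher by edgeR. Of 17 tested other epithelial genes, LLGL2, a polarity protein, was higher (0.44, SE 0.12) and KRT7 lower (-0.52, SE 0.11), and CRB3 was added to the higher genes by the siRNA term. ESRP1, a splicing factor of epithelial cells, had at most 6 counts in a library, whereas ESRP2 averaged 33.6 TPM.

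Of 9 tested other EMT transcription factors none was called between replicates without the siRNA term. With it TWIST1 was higher (0.44, adjusted p = 0.0372 by edgeR), and TWIST2 (-0.63, adjusted p = 0.00149) and TCF3 (-0.36, adjusted p = 0.00600) were lower. TCF3 and FOXC2 were the most abundant at 88.1 and 33.8 TPM, and PRRX1 had at most 4 counts in a library. Of 25 mesenchymal and matrix genes 7 were higher and 2 lower, and with the siRNA term 9 were higher and 3 lower. That term added COL3A1 and COL4A1 to the higher genes and THBS1 to the lower ones. COL1A1 and COL3A1 are also among the fibroblast and stellate cell markers above. COL5A1, a fibrillar collagen, and TGFBI, a matrix protein that TGF-beta induces, were higher at 0.63 (SE 0.11) and 0.67 (SE 0.13), and CYR61, a matrix signalling protein, was lower at -0.94 (SE 0.14). S100A4 and COL4A2, at 1143 and 224 TPM, were not called in either fit.

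The fibronectin and matrix integrins showed 0 calls between replicates among 7 tested, with ITGB1 and ITGA5, whose proteins pair as the fibronectin receptor, at 257 and 196 TPM. With the siRNA term ITGA5 was called higher (0.31, adjusted p = 0.0108 by edgeR) and ITGB8 lower (-0.69, adjusted p = 0.00716). In the TGF-beta pathway, a known inducer of EMT, 1 of 13 genes was higher and 1 lower. The decoy receptor BAMBI was higher at 0.99 (SE 0.17), and the ligand TGFB1, at 248 TPM, was lower at -0.52 (SE 0.11), and the siRNA term added LTBP1 to the higher genes and TGFBR1 to the lower ones.

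**Figure D5:**
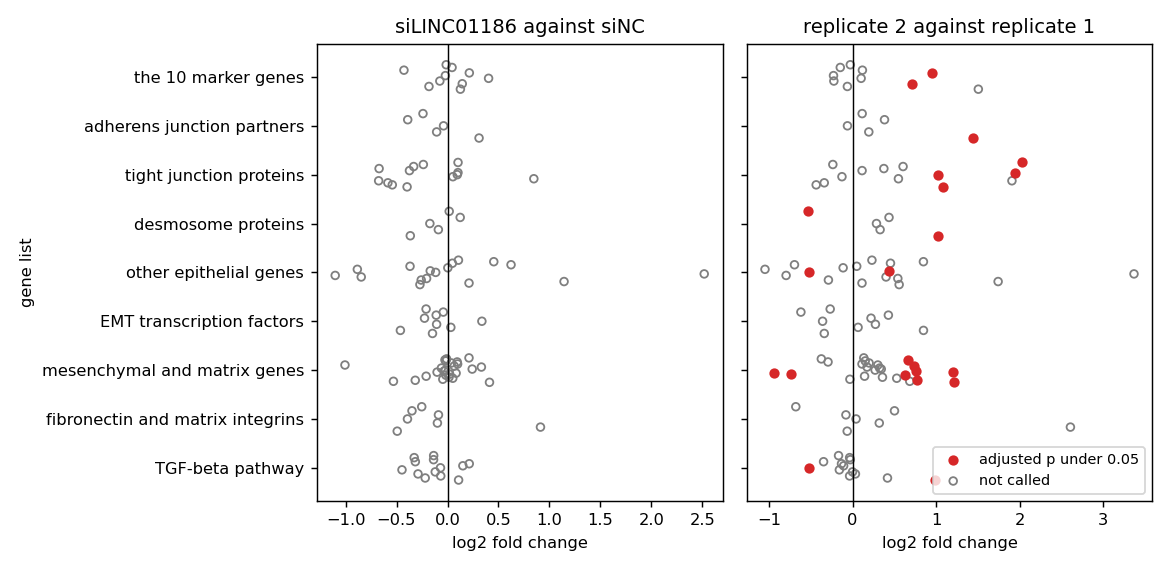
Log2 fold change of each tested gene of the 10 marker genes and of 8 lists, for siLINC01186 against siNC (left) and replicate 2 against replicate 1 (right), on axes of different range. Red filled points had an adjusted p under 0.05 by edgeR's quasi-likelihood test without a block. No point is red on the left, and on the right 15 list genes are red above 0 and 5 below it, beside 2 of the marker genes.

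The genes most like CDH1 and VIM over the 4 libraries were found by the Euclidean distance of centred log2 CPM among 6411 genes with a mean log2 CPM of at least 5. For CDH1 they were BAMBI at 0.50, BCL2L13 at 0.59 and OLFML2A at 0.65. For VIM the nearest was FKBP2 at 0.02, and 1385 of the 6411 genes lay within 0.2. With 4 libraries these distances are a description only.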

How the data were processed

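Poly(A) RNA libraries labelled HepG2 (2 siNC, 2 siLINC01186) were read as paired ends. The authors deposited a raw count and a TPM value per gene. The submitters' processing notes name hg19, HISAT2, HISAT, TopHat2 and Bowtie2, and the counting program is not given in the sources used here. Each deposited TPM was the count divided by gene length and scaled to 1000000 per library.

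Genes whose counts over all libraries summed to 5 or more were TMM-scaled and compared with edgeR 4.0.16 (quasi-likelihood test, R 4.3.3) without a block, and p-values were adjusted by Benjamini-Hochberg over 23942 genes. Standard errors were taken from the fold change and the F statistic. Log2 CPM used a prior count of 2. Within a pair, the ratio has an exact conditional interval (95%, scipy 1.17.1). The difference between pairs leaves no residual degrees of freedom and was not tested. Same-numbered libraries were treated as pairs for the within-pair ratios and the replicate block, since the study describes 2 biological repeats. Their deviations from the group means correlated at 0.563. The test without a block did not use the pairing, so its error for the siRNA holds the difference between replicates. Alternatives were the replicate block, DESeq2 1.42.0, its size factors, library size alone, other filters, the deposited TPM, another prior count and leaving out each library.

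The 10 genes and the lists were chosen with earlier results of these data known. Named are the 10 genes and, of each list, up to 4 called genes by smallest p and the 2 with the highest mean TPM. A result that this rule covers is not reported here. ESRP1, ESRP2, PRRX1, the genes called by the siRNA term alone and the single genes of the cell type lists were named after their values were seen. Oligo sequences came from the study's supplement, and 3′UTRs from GENCODE 29.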

Additional observations from a re-analysis of the deposited data

Results flagged for a closer look

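VIM was singled out because its pairs moved in opposite directions, each beyond its counting interval on the TMM-scaled library sizes. The siLINC01186 rate was 1.12 times that of siNC in replicate 1 (95% exact interval 1.09 to 1.14) and 0.946 times in replicate 2 (0.926 to 0.967). On the log2 scale the difference in replicate 2 minus that in replicate 1 was -0.24. Whether the pairs differ could not be tested, and the intervals cover counting error only. By the study's description the pairs also had different siSALIS oligos. On unscaled library sizes the log2 difference was 0.14 in replicate 1 and -0.03 in replicate 2, against -0.08 in replicate 2 on the scaled sizes. The size of the replicate 2 difference thus depended on the scaling.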

How the results depend on the processing

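The count of the 10 genes called in siLINC01186 against siNC was 0 under each alternative run, including the replicate block and each library left out. Over all genes the 0 calls became 278 with the replicate block, 1 by DESeq2's Wald test and 5 with a filter of at least 1 count in any library, and ranged from 0 to 6 without 1 library. Genes past the study's limits numbered 181, against 27 by DESeq2's Wald test and 46 by edgeR's expression filter, and ranged from 248 to 375 without 1 library. Between replicates the 2158 calls became 4191 with the treatment and replicate block and ranged from 1294 without siLINC01186 replicate 1 to 3332 without siNC replicate 2. Genes past the limits, 1309, fell to 655 by DESeq2's Wald test. The number of the 10 genes called, 2, became 4 with the treatment and replicate block and ranged from 1 to 3 without 1 library, with CDH1 called at an adjusted p of 0.0450 without siNC replicate 1 and 0.0243 without siNC replicate 2. CDH1 was also called with the filter of at least 1 count in any library (adjusted p = 0.0155). DESeq2 gave CDH1 no adjusted p. Where a library was left out, its arm had 1 library, assumed to vary like the others. The treatment and replicate block added CDH1 and KRT8 to the calls between replicates. For the siRNA the replicate block changed no call among the 10.

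Directions of uncalled genes turned in a few fits. CDH1 was at -0.012 with the replicate block, and with library size alone ZEB1 was at 0.0031 for the siRNA, and CDH2 and ZEB1 at 0.050 and 0.086 between replicates. Without 1 library the siRNA log2 fold change ranged from -1.51 to 0.83 for CDH1, -0.16 to 0.10 for KRT8, -0.20 to 0.062 for KRT18, -0.092 to 0.16 for VIM, -0.22 to 0.64 for FN1, -0.39 to 0.72 for SNAI2 and -0.044 to 0.013 for ZEB1. Between replicates it ranged from -0.15 to 0.39 for KRT19, -0.16 to 0.47 for TJP1 and -0.16 to 0.049 for CDH2. The cause was not tested.

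Scaling by library size alone moved the median of all genes between replicates by 0.11 and split the calls into 1508 higher and 554 lower, against 1064 and 1094. On the deposited TPM scale the median of 15068 genes at 1 TPM or more was shifted by -0.17 in siLINC01186 against siNC, and VIM (-0.13) and ZEB1 (-0.17) lay close to that shift. The design has 2 libraries a group, and CDH1 rests on 5 to 32 counts a library.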
